A study of Mus musculus with 8 samples.

Results

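The cartilage collagens were followed through the stromal cells of unfractured and fractured mouse femur. The 8 genes are Col2a1, Col9a1, Col9a2, Col9a3, Col10a1, Col11a1, Col11a2 and Col27a1, of 28956 genes in the count tables and 26180 found in at least 3 cells, and all 8 were kept. They were chosen by name as the chains of collagens II, IX, X, XI and XXVII. Both groups were 12-week-old wild-type C57BL/6 females. In the Fracture group the left leg had been broken at 10 weeks of age by bending and held with a nail in the marrow cavity, and the femur was collected at day 14, while the Control group was not fractured. Blood cells were depleted from the suspensions, and each group gave 2 cell preparations with 2 droplet libraries each, 8 libraries in all. Nothing in the labels says how many animals entered a preparation, so the spread between preparations may be technical.

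Collagen II is the main fibrillar collagen of cartilage, a homotrimer of the Col2a1 chain. Collagen XI, built from the Col11a1 and Col11a2 chains together with a Col2a1 product, forms the core of the fibril and limits its width, and collagen IX, a trimer of the Col9a1, Col9a2 and Col9a3 chains, sits on the fibril surface. Collagen X is a short network-forming collagen made by hypertrophic chondrocytes, the enlarged cells whose matrix is calcified before bone replaces it. Collagen XXVII is a fibrillar collagen of cartilage with a less well known role. In a healing fracture a cartilage callus is formed and then turned into bone, as in a growth plate.

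All 8 chains share a run of glycine-X-Y triplets, the sequence that lets chains wind into a triple helix. The first 6 triplets of the longest unbroken run of each gene are shown here, because their regular glycine codons mark the helix that the chains have in common. They are given 5′ to 3′ on the coding strand from GENCODE transcripts on the GRCm38 (mm10) genome, with the glycine codons in capitals.
Col2a1: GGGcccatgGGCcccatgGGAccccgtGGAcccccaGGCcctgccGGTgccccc
Col11a1: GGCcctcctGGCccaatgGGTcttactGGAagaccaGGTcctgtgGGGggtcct
Col11a2: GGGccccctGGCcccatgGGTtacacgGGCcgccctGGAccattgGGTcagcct
Col27a1: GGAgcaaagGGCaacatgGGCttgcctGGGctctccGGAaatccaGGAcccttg
Col9a1: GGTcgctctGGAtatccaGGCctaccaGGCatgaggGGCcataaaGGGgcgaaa
Col9a2: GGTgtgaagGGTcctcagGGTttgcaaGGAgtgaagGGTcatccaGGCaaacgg
Col9a3: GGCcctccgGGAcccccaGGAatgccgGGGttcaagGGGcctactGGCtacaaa
Col10a1: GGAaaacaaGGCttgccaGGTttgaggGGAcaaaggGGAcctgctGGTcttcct

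The run was 339 triplets long in Col2a1 and 338 in both Col11a1 and Col11a2. It was 217 triplets in Col27a1, 113 in each of the 3 collagen IX genes and 61 in Col10a1. The stretches shown start in exon 7 of 53 in Col2a1, exon 14 of 67 in Col11a1 and exon 12 of 64 in Col11a2. They start in exon 6 of 61 in Col27a1, exon 17 of 38 in Col9a1, exon 11 of 32 in Col9a2 and exon 12 of 33 in Col9a3. In these 7 genes the stretch runs over into the next exon. In Col10a1 the whole of this longest unbroken run, 549 bases, lies in the last of 3 exons.

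On GRCm38, Col2a1 lies at chr15:97975602-98004695 on the minus strand, and the other genes lie on the plus strand. Col9a1 is at chr1:24177610-24252684, Col9a2 at chr4:121039385-121055322 and Col9a3 at chr2:180597790-180622189. Col10a1 is at chr10:34389981-34397085, Col11a1 at chr3:114030540-114220718, Col11a2 at chr17:34039437-34066685 and Col27a1 at chr4:63214004-63334991. Col10a1 lies inside Nt5dc1 and the end of Col9a3 overlaps Tcfl5, both on the opposite strand. The strand setting of the counting is not given in the sources used here, so reads of these pairs cannot be told apart.

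The libraries held 56543151 to 89126291 unique molecular identifiers (UMIs, each standing for 1 captured transcript) in 4464 to 7485 barcodes. Of 48903 barcodes 45328 were kept as cells. Clusters were formed without the 8 genes and named from marker lists, which gave 16891 chondrocyte-like and 6002 osteoblast-like cells. The 8 chondrocyte markers, which hold no collagen, summed to 34088 and 33716 CPM (the UMIs of a gene scaled to the same total in every sum) in the chondrocyte-like cells of Control and to 28307 and 29345 CPM in those of Fracture, and none was at 0. Any 2 libraries shared at most 23 barcodes. In chondrocyte-like cells the 8 genes differed by a median of 9.41% between the Control preparations and of 2.97% between the Fracture preparations, against 1.54% to 3.83% between the 2 libraries of a preparation. Single genes differed by more, and Col10a1 stood at 7554 and 5070 CPM in the 2 libraries of Control 1 (49% apart) and at 8631 and 7014 CPM in those of Control 2 (23% apart). All these percentages are relative to the second of the pair. By the median over the 8 genes the Fracture pair was about as close as repeat libraries. Over 8280 genes the median absolute log2 difference was 0.059 between the Fracture preparations and 0.111 between the Control preparations. It was 0.0481 to 0.111 between the 2 libraries of a preparation. Over the same genes the chi-square per degree of freedom was 46 for the Fracture pair and 22.8 for the Control pair, against 3.34 to 10.3 between libraries. This chi-square grows with the number of UMIs, so it does not rank pairs of unlike depth.

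The 8 genes made up a large part of the RNA of chondrocyte-like cells. They gave 9.35% and 8.71% of all UMIs in Control and 10.6% and 10.6% in Fracture. Over all cells of a preparation they gave 2.59% and 1.43% in Control and 7.14% and 6.98% in Fracture. In osteoblast-like cells they gave 1.21% and 1.17% in Control and 1.00% and 1.02% in Fracture. Levels below are plain CPM, and since each transcript is counted near its end, they do not scale with gene length.

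Col2a1 stood at 56460 and 50476 CPM in chondrocyte-like cells of Control and at 62110 and 62678 CPM in those of Fracture. It was the highest of the 8 genes in every preparation. Col11a1 was at 8774 and 7721 CPM in Control and at 10103 and 10121 CPM in Fracture. Col10a1 was at 6295 and 7836 CPM in Control and at 14317 and 13846 CPM in Fracture. Col11a1 thus came after Col2a1 in Control 1, was close to Col10a1 in Control 2 and stood below it in both Fracture preparations. Col9a3, the most counted chain of collagen IX, was at 6417, 6383, 6623 and 6071 CPM in Control 1, Control 2, Fracture 1 and Fracture 2. The values of Col9a3 overlapped between the groups, as did those of Col9a2 (4145, 4090, 4321 and 3949 CPM). Col9a1 was at 4779 and 4378 CPM in Control and at 4036 and 3936 CPM in Fracture, and Col11a2 was at 4295 and 3917 CPM in Control and at 3297 and 3218 CPM in Fracture, without overlap. Col27a1 was the lowest, with 2312 and 2284 CPM in Control and 1595 and 1685 CPM in Fracture, and its groups did not overlap either.

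**Figure D1:**
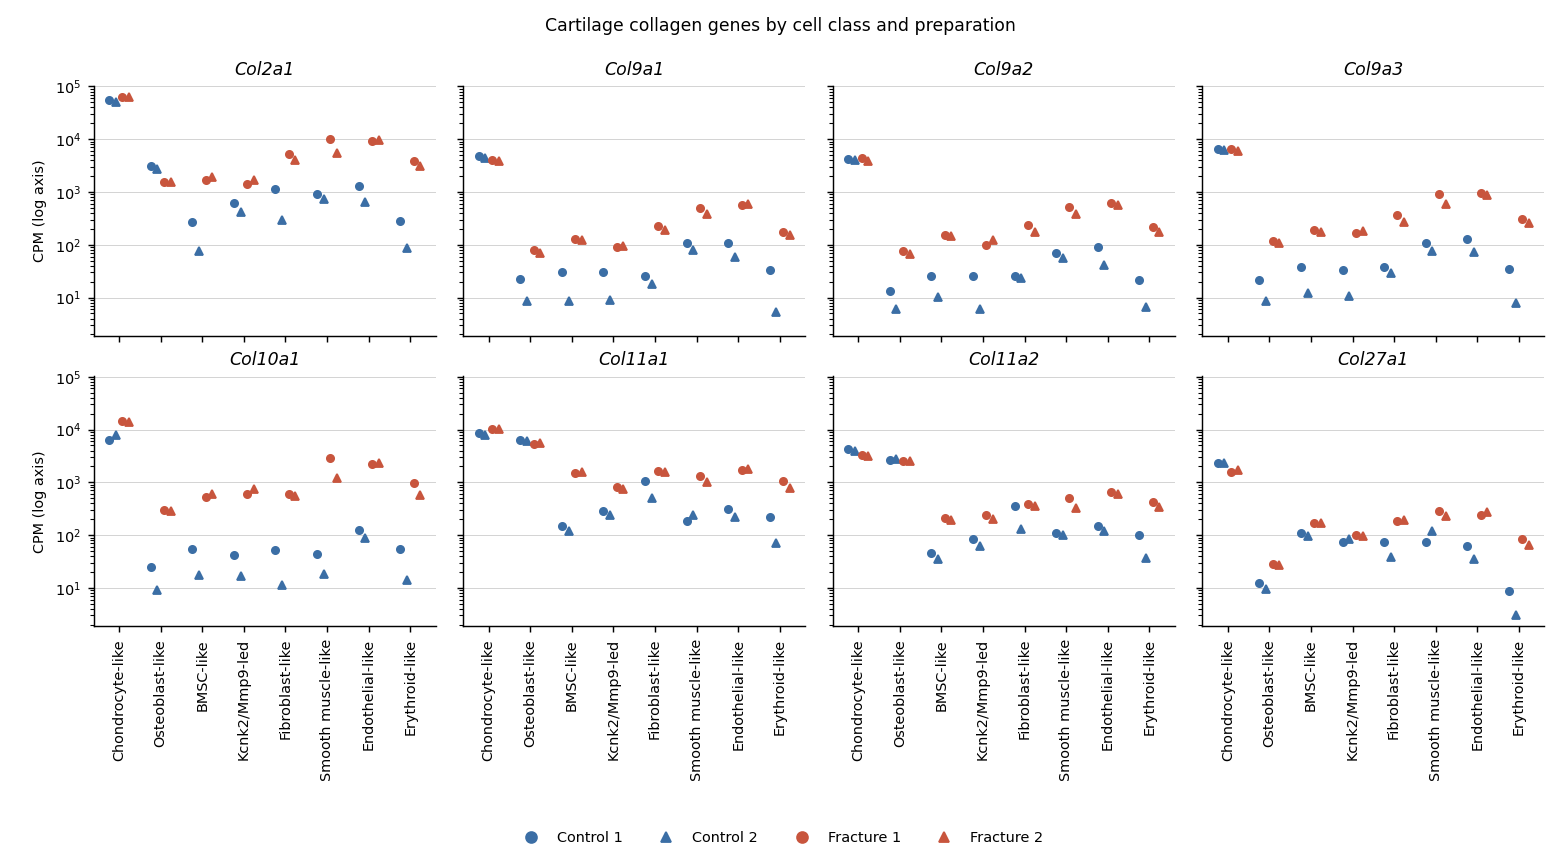
Level of each gene in CPM on a log axis by cell class; each point is 1 preparation, Control in blue and Fracture in red, circles for preparation 1 and triangles for preparation 2. All 8 genes were highest in chondrocyte-like cells, Col11a1 and Col11a2 were next highest in osteoblast-like cells, and in most other classes the Fracture points lie above the Control points.

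Whether fracture changed the level in chondrocyte-like cells, as a share of their UMIs, was tested on UMIs summed per preparation (edgeR quasi-likelihood test, p-values adjusted over 17323 genes). Of the 8 genes 2 passed at an adjusted p under 0.05, against 36.8% of all genes tested. Col10a1 rose by a fitted log2 difference of 1.15 (SE 0.19, adjusted p = 0.0161), and Col27a1 fell by 0.33 on the log2 scale (SE 0.08, adjusted p = 0.0364). Col11a1 was higher by 0.45 (SE 0.15, adjusted p = 0.0822) and Col2a1 by 0.38 (SE 0.38, adjusted p = 0.474), and neither passed. Col9a1 differed by -0.05, Col9a2 by 0.16, Col9a3 by 0.14 and Col11a2 by -0.18, with adjusted p-values of 0.753, 0.288, 0.418 and 0.218. Without Fracture 1 or without Fracture 2 Col10a1 differed by 1.15 and 1.18. With 1 Fracture preparation left, calls fell over all genes tested, not for these 8 alone. No comparable fall over all genes came with 1 Control preparation left. The fitted differences lie 0.15 above those of the plain CPM means in this class, so that Col9a3 is at -0.01 and Col11a2 at -0.33 on the plain scale. In these cells the 7 osteoblast markers summed to 2929 and 3054 CPM in Control and to 1638 and 1804 CPM in Fracture. The 8 erythroid markers summed to 177 and 465 CPM and then to 1220 and 1284 CPM. The part of these shifts in the changes was not tested.

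The rise of Col10a1 stood beside a change in the makeup of the chondrocyte-like cells. These cells fell into 8 subclusters, of which the marker lists named Serpina1-high, articular-like and cycling-like cells, and the others are called by their leading genes. Col10a1 was concentrated in the Aldh1a3/Loxl4-led cells, whose leading genes hold Ihh, the signal of prehypertrophic chondrocytes. It stood there at 36500 and 38477 CPM in Control and at 40812 and 39911 CPM in Fracture. The Dmp1/Car3-led cells came next, with 9175 and 8714 CPM in Control and 22146 and 20145 CPM in Fracture. The Aldh1a3/Loxl4-led cells made up 12.0% and 15.5% of the chondrocyte-like cells of Control and 25.8% and 24.8% of those of Fracture. Serpina1-high cells went the other way, from 34.3% and 36.6% to 11.8% and 11.8%. With the subclusters weighted alike in every preparation, the ratio of Fracture to Control fell from 1.99 to 1.29 for Col10a1 and from 1.17 to 1.10 for Col2a1, and stayed near its plain value for Col11a2 (0.793 and 0.804) and Col27a1 (0.714 and 0.751). The weighting was done for this clustering only, and the part of makeup in the rise was not tested. Shares of cells depend on how well each cell type survives isolation, which was not measured.

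**Figure D2:**
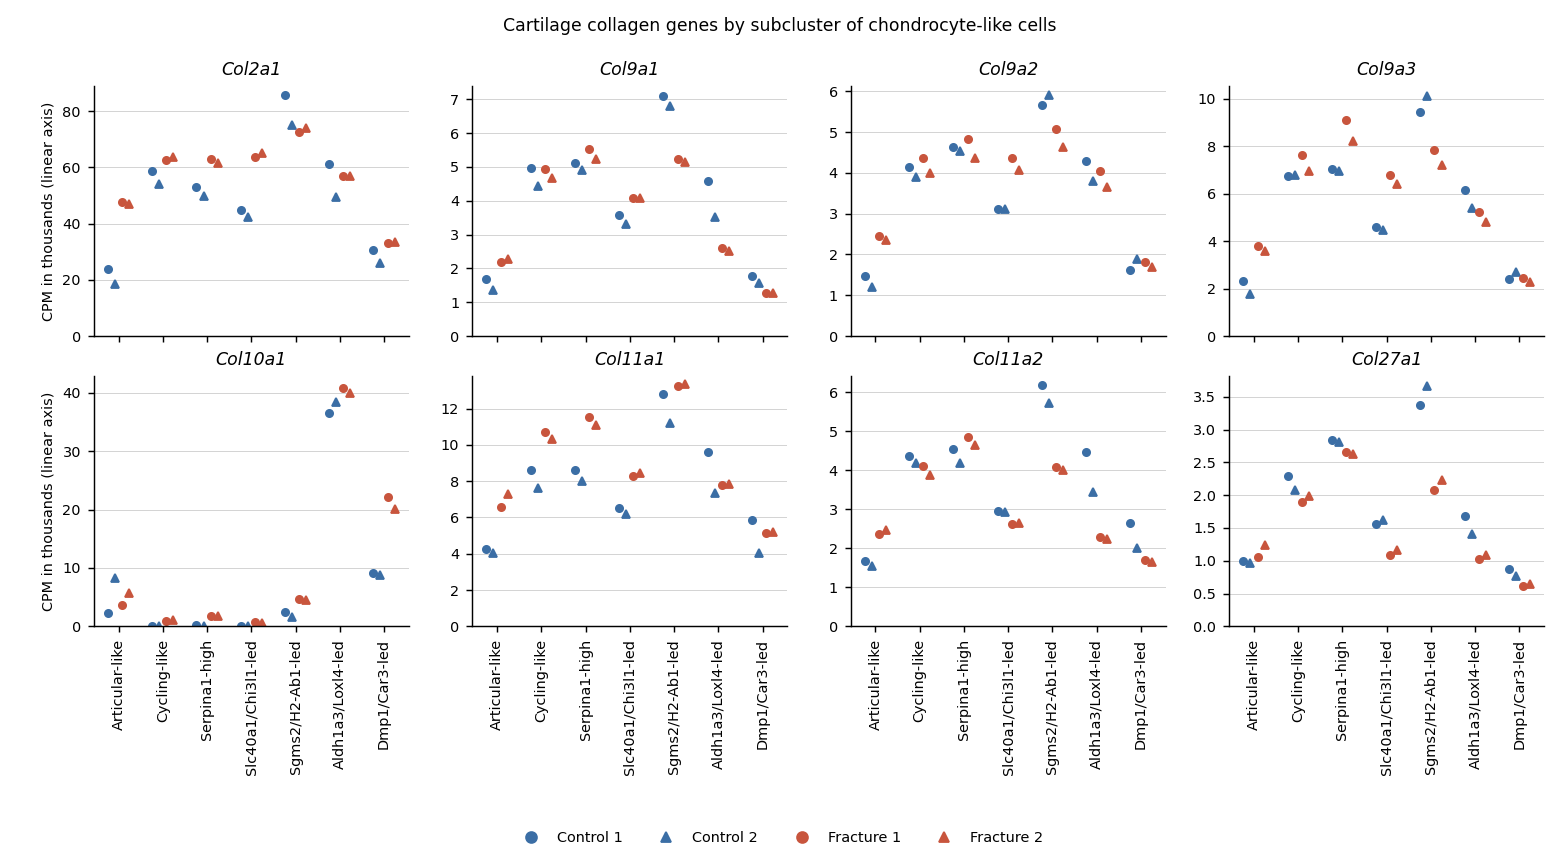
Level of each gene in units of 1000 CPM on a linear axis from 0, by subcluster of the chondrocyte-like cells; each point is 1 preparation, Control in blue and Fracture in red. Col10a1 is high in the Aldh1a3/Loxl4-led and Dmp1/Car3-led cells, where the other 7 genes do not peak, and Col2a1 is highest in the Sgms2/H2-Ab1-led cells.

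The other 7 genes were highest elsewhere. In both Control preparations each of the 7 was highest in the Sgms2/H2-Ab1-led cells. In both Fracture preparations this held for Col2a1, Col9a2 and Col11a1, while Col9a1, Col9a3, Col11a2 and Col27a1 were highest in Serpina1-high cells. The Sgms2/H2-Ab1-led cells held Col2a1 at 85650 and 75032 CPM in Control and at 72589 and 73862 CPM in Fracture. They held Col11a1 at 12792 and 11224 CPM in Control and at 13225 and 13326 CPM in Fracture. Serpina1-high cells held Col27a1 at 2843 and 2805 CPM in Control and at 2662 and 2633 CPM in Fracture, where the Sgms2/H2-Ab1-led cells had fallen from 3372 and 3664 CPM to 2076 and 2233 CPM. The Sgms2/H2-Ab1-led cells made up 12.4% and 10.5% of chondrocyte-like cells in Control and 30.7% and 31.1% in Fracture. The articular-like cells, led by Prg4, the lubricant of joint surfaces, had the lowest Col2a1 in Control, with 23948 and 18468 CPM, and reached 47551 and 46893 CPM in Fracture. The Dmp1/Car3-led cells had the lowest Col2a1 in Fracture, with 32984 and 33459 CPM after 30521 and 26032 CPM in Control, and they also held osteoblast genes. Osteoblast markers summed there to 22293 and 15485 CPM in Control and to 5928 and 7557 CPM in Fracture, and the part of this shift in their values was not tested. Called doublets (droplets that may hold more than 1 cell) were 14.9% and 3.92% of the Dmp1/Car3-led cells of Control and 12.0% and 8.77% of those of Fracture, against 1.59% of all cells. Without the Dmp1/Car3-led cells the class still had the same 2 calls, Col10a1 at 1.11 (adjusted p = 0.0185) and Col27a1 at -0.31 (adjusted p = 0.0472).

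Within subclusters the fracture effect was not the same from one to the next. In a single fit over 7 subclusters, with the preparation as a block, the difference in the fracture effect passed for 8 of 8 genes, against 34.9% of all genes tested, with adjusted p-values from 3.86e-10 for Col2a1 to 1.84e-05 for Col11a1. Set against the Aldh1a3/Loxl4-led cells, the effect on Col2a1 differed by -0.12 to 1.23 on the log2 scale. Without 1 preparation in turn these differences lay between -0.15 and 1.31. This fit treats the subclusters of a preparation as alike in their spread, and its clusters were formed from the same cells. At a coarser clustering, where 1 cluster was named hypertrophic-like, the fracture effect in it against the other cells was called for 0 of 8 genes (8.22% of all genes), with Col11a1 at -0.54 (adjusted p = 0.0795) and Col11a2 at -0.57 (adjusted p = 0.0805). That cluster was the best match of the Dmp1/Car3-led cells. The Aldh1a3/Loxl4-led cells, highest in Col10a1, were best matched by a cluster among the other cells, so their effect was not set apart here.

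In Sgms2/H2-Ab1-led cells 5 of 8 genes were called, against 23% of all genes. Col27a1 fell by 0.65 (SE 0.08), Col11a2 by 0.50 (SE 0.06), Col9a1 by 0.36 (SE 0.06) and Col9a3 by 0.32 (SE 0.08) on the log2 scale, while Col10a1 rose by 1.24 (SE 0.19). The adjusted p-values were between 0.0073 for Col11a2 and 0.0442 for Col9a3. The 7 osteoblast markers summed there to 2796 and 3772 CPM in Control and to 1123 and 1086 CPM in Fracture, and in Aldh1a3/Loxl4-led cells to 2264 and 1933 CPM and then to 1175 and 1162 CPM. Their part in these changes was not tested. In Aldh1a3/Loxl4-led cells 3 of 8 were called, against 21.7%, and all were lower in Fracture. Col11a2 fell by 0.81 (adjusted p = 0.017), Col9a1 by 0.67 (adjusted p = 0.0305) and Col27a1 by 0.56 (adjusted p = 0.0272), whereas Col10a1, at its highest level here, differed by 0.10 (SE 0.12, adjusted p = 0.616). None of the 3 was called with the cell cycle genes taken out of the subclustering. There Col11a2 was at -0.46, Col9a1 at -0.32 and Col27a1 at -0.20 in the matching cells. Without Fracture 1 or without Fracture 2 calls in these cells were lost over all genes tested, not for these 3 alone.

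Articular-like cells had 5 of 8 genes called, against 8.78%, all of them higher in Fracture. Col2a1 rose by 1.26 (SE 0.17, adjusted p = 0.0121), Col9a3 by 0.95, Col9a2 by 0.94, Col11a1 by 0.84 and Col11a2 by 0.68. Beside this, the 8 BMSC-like markers (Cxcl12 and Adipoq among them, genes of marrow stroma) summed to 4751 and 1728 CPM in the articular-like cells of Control and to 606 and 836 CPM in those of Fracture. Their part in the rise was not tested. The cluster held only 27 cells in Control 2. Called doublets were 16.9% and 3.70% of the articular-like cells in Control and 12.7% and 8.84% in Fracture. With called doublets removed Col2a1 stood there at 1.49 (adjusted p = 0.00676) and Col9a1 at 1.06 (adjusted p = 0.0147). In Slc40a1/Chi3l1-led cells 4 genes rose, against 18.4% of all genes, with Col9a3 at 0.69, Col9a2 at 0.58 and Col11a1 at 0.54, beside Col10a1. Over the 7 subclusters fitted, 20 calls were made, and they rest on both Fracture preparations. Without Fracture 1 or without Fracture 2 calls fell over all genes tested in each of the 7. No comparable fall came with 1 Control preparation left.

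**Figure D3:**
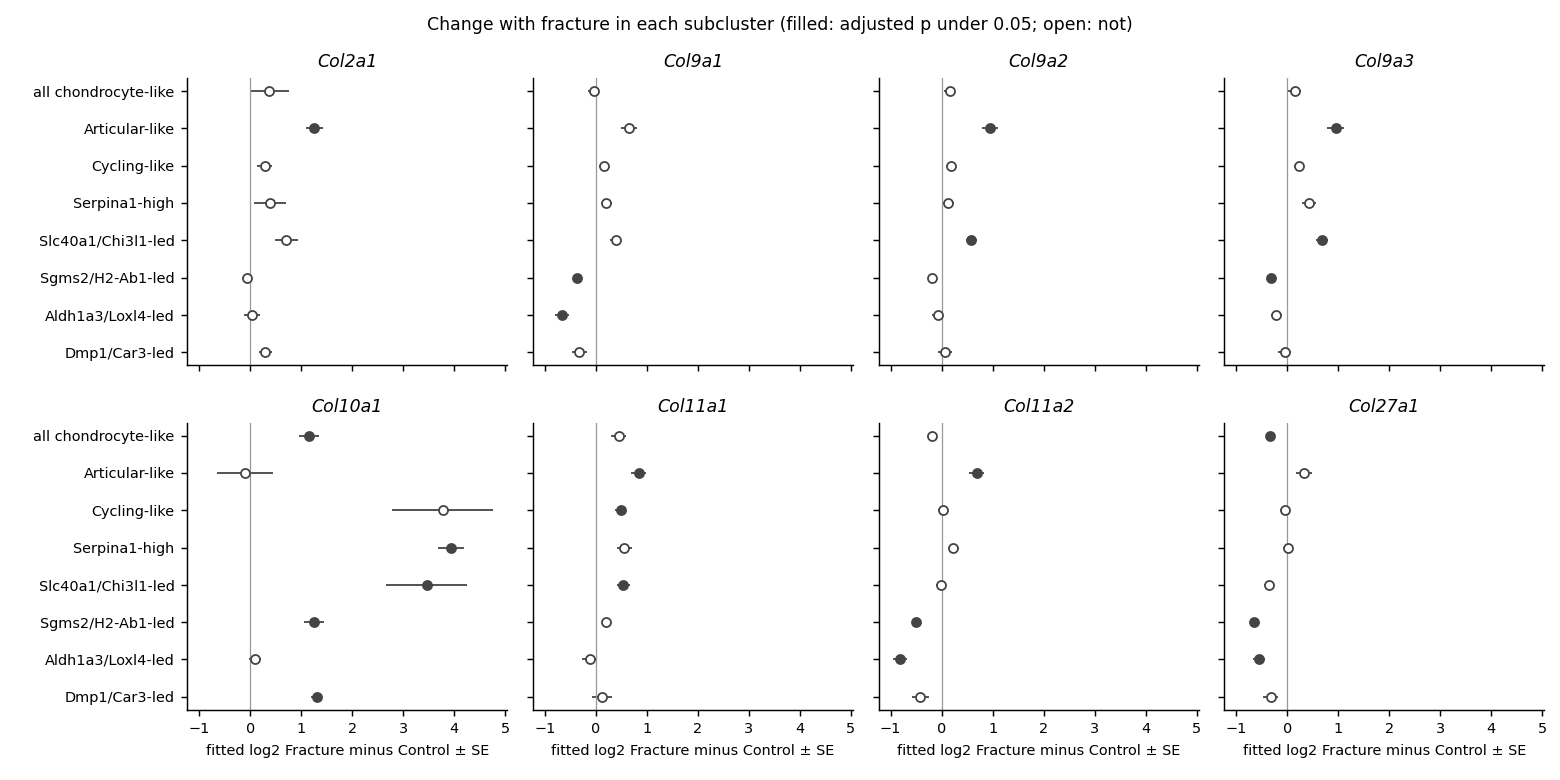
Fitted log2 difference of Fracture minus Control with its standard error, for all chondrocyte-like cells and for 7 subclusters; filled points have an adjusted p under 0.05. Col9a1, Col11a2 and Col27a1 lie below 0 in the Sgms2/H2-Ab1-led and Aldh1a3/Loxl4-led cells, the 7 genes other than Col10a1 lie above 0 in the articular-like cells, and the largest differences are those of Col10a1 in cells where Control held little of it.

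Large rises of Col10a1 stood in subclusters where it was low. In Serpina1-high cells it went from 161 and 94.9 CPM to 1792 and 1818 CPM (log2 difference 3.93, SE 0.26, adjusted p = 0.00611), the only one of the 8 called there, against 8.68% of all genes. In Slc40a1/Chi3l1-led cells it went from 108 and 14.4 CPM to 717 and 562 CPM (3.46, SE 0.80, adjusted p = 0.0369). In cycling-like cells it went from 138 and 9.6 CPM to 908 and 1040 CPM (3.77, SE 0.98, adjusted p = 0.0693), and the only one of the 8 called there was Col11a1 at 0.49 (adjusted p = 0.0463), against 10.9%. Free RNA in the droplets can give such counts. Erythroid-like cells, red blood cell precursors that should hold no collagen, had 984 and 580 CPM of Col10a1 in Fracture, and endothelial-like cells had 2264 and 2332 CPM. The Fracture levels in these 3 subclusters lay below those of endothelial-like cells. Serpina1-high cells lay above the erythroid-like cells in both Fracture preparations and cycling-like cells in Fracture 2, and all 3 lay above the 362 and 339 CPM of erythroid-like cells clustered without integration. The part of free RNA in these rises was not tested. Sgms2/H2-Ab1-led cells, at 4686 and 4490 CPM, and Dmp1/Car3-led cells lie above that range. The Dmp1/Car3-led cells had Col10a1 as the only one of the 8 called, at 1.30 (SE 0.11, adjusted p = 0.00347), against 3.81%. With called doublets removed it stood at 1.22 (adjusted p = 0.00756).

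The chains of collagen XI were also set against each other. For every 100 UMIs of Col11a1 chondrocyte-like cells held 49.0 and 50.7 UMIs of Col11a2 in Control and 32.6 and 31.8 in Fracture, a ratio that does not depend on scaling between libraries. The means differed by -17.6 (49.8 ± 1.25 and 32.2 ± 0.591, SD, n = 2), with an exact two-sided permutation p of 0.333, the smallest that 2 against 2 preparations can give. It was lower in Fracture in each of the 8 subclusters, from 52.5 ± 0.0247 to 41.9 ± 0.121 in Serpina1-high cells, and from 49.6 ± 1.83 to 30.4 ± 0.652 in Sgms2/H2-Ab1-led cells. In osteoblast-like cells it was 43.4 and 45.4 in Control and 48.8 and 47.3 in Fracture.

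Within collagen IX, the Col9a1 chain gave 31.1% and 29.5% of the UMIs of the 3 genes in chondrocyte-like cells of Control and 26.9% and 28.2% in those of Fracture. Among the subclusters the gap was widest in Aldh1a3/Loxl4-led cells, 30.5% and 27.6% against 22.0% and 22.9%. In Sgms2/H2-Ab1-led and cycling-like cells the groups overlapped, in the latter with 31.4% and 29.4% against 29.2% and 30%. Set against Col2a1, Col27a1 stood at 4.10 and 4.53 UMIs per 100 in chondrocyte-like cells of Control and at 2.57 and 2.69 in Fracture, and Col11a1 at 15.5 and 15.3 and then 16.3 and 16.2.

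Individual cells differed in whether collagen II or X led. More Col10a1 than Col2a1 UMIs were found in 5.57% and 8.82% of chondrocyte-like cells in Control and in 12.8% and 12.1% in Fracture. In Aldh1a3/Loxl4-led cells this share was 31.8% and 43.0% in Control and 36.0% and 36.7% in Fracture, and the groups overlapped. In Dmp1/Car3-led cells it was 22.8% and 19.6% in Control and 40.6% and 34.2% in Fracture. In the Serpina1-high, Sgms2/H2-Ab1-led, Slc40a1/Chi3l1-led and cycling-like cells it was at most 0.749% in every preparation.

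**Figure D4:**
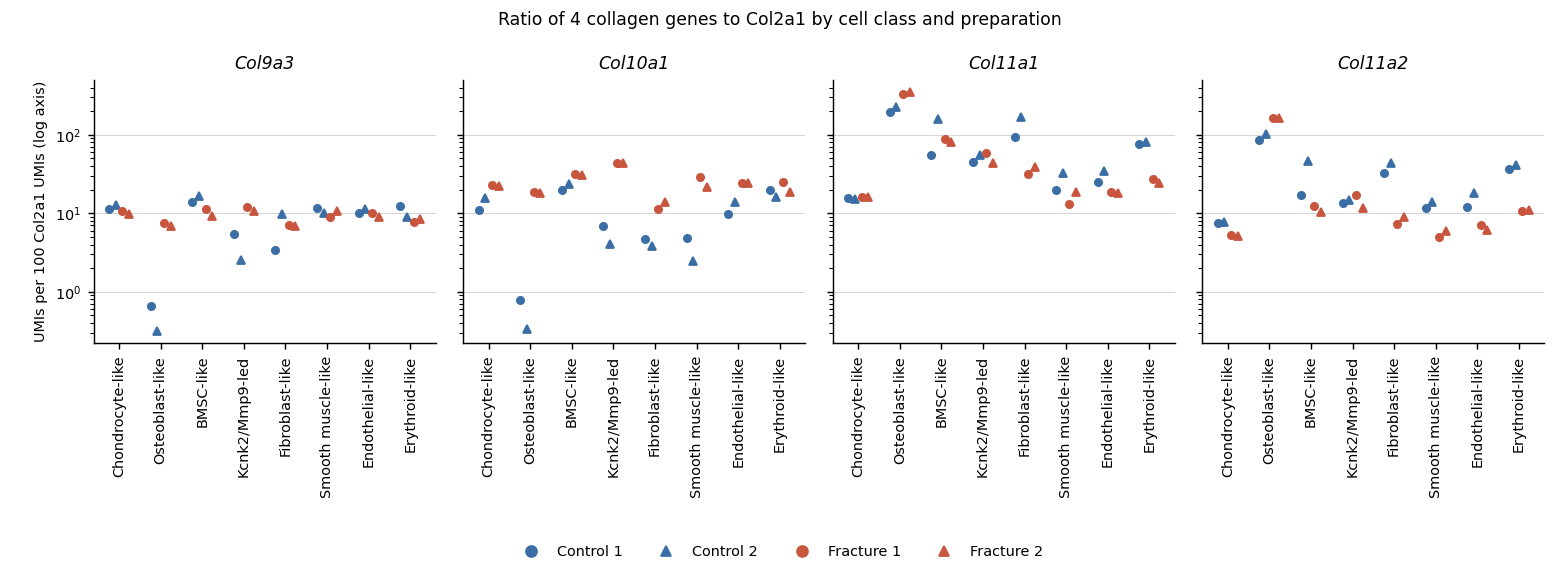
UMIs of Col9a3, Col10a1, Col11a1 and Col11a2 per 100 UMIs of Col2a1, on a log axis, by cell class; each point is 1 preparation. Endothelial-like points lie close to those of chondrocyte-like cells in Fracture, while osteoblast-like cells hold more Col11a1 than Col2a1 in every preparation.

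Among the classes outside cartilage, osteoblast-like cells held the most Col11a1 and Col11a2 in every preparation. Col11a1 was at 6200 and 6105 CPM in Control and at 5277 and 5466 CPM in Fracture. Col11a2 was at 2689 and 2771 CPM, and then at 2575 and 2586 CPM. Neither change was called (log2 differences -0.27, SE 0.13, and -0.16, SE 0.10, with adjusted p-values of 0.202 and 0.326). In erythroid-like cells of the same preparations Col11a1 was at 216, 70.4, 1078 and 768 CPM. Per 100 UMIs of Col2a1, osteoblast-like cells held 196, 223, 335 and 351 UMIs of Col11a1, against 15.5, 15.3, 16.3 and 16.2 in chondrocyte-like cells. In erythroid-like cells the same ratio was 76.5, 81.0, 27.3 and 24.6, above the cartilage ratio too. Clustered without integration, erythroid-like cells held 77.7, 29.1, 153 and 231 CPM of Col11a1, beside 260, 62.3, 882 and 1133 CPM of Col2a1. In that clustering osteoblast-like cells held 5418, 5452, 4400 and 4551 CPM of Col11a1.

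Col2a1 itself was lower in osteoblast-like cells after fracture. It stood at 3167 and 2737 CPM in Control and at 1574 and 1558 CPM in Fracture, a fitted log2 difference of -0.99 (SE 0.10, adjusted p = 0.0094). In this class 6 of 8 genes were called, against 15.9% of all genes, and the other 5 were higher in Fracture. Col10a1 went from 24.7 and 9.2 CPM to 293 and 284 CPM, Col9a3 from 21.1 and 8.6 CPM to 119 and 108 CPM, and Col27a1 from 12.3 and 9.5 CPM to 27.7 and 27 CPM. The erythroid-like cells of Fracture held 302 and 264 CPM of Col9a3 and 83.1 and 66.0 CPM of Col27a1, so these genes lay below the level of blood cells. Clustered without integration, erythroid-like cells of Fracture held 139 and 130 CPM of Col9a3, 362 and 339 CPM of Col10a1 and 23.2 and 22.7 CPM of Col27a1. In that clustering the osteoblast-like cells of Fracture held 125 and 119 CPM of Col9a3, 343 and 325 CPM of Col10a1 and 40.1 and 37.8 CPM of Col27a1, so that Col27a1 then lay above the erythroid-like cells and the other two below them. Col2a1 in osteoblast-like cells of Fracture lay below the 3954 and 3124 CPM of the erythroid-like cells, while without integration it was at 1519 and 1561 CPM, above the 882 and 1133 CPM of the erythroid-like cells. In Control, Col2a1 was 15.2 and 35.0 times the level that the collagen IX genes would give at the ratio of chondrocyte-like cells, and in Fracture 1.38 and 1.41 times. Without Fracture 1 or Fracture 2 Col2a1 was at -0.96 and -1.02. With 1 Fracture preparation left, calls in this class were lost over all genes tested, not for these 8 alone. With 1 Control preparation left, calls in this class rose over all genes tested.

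The osteoblast-like cells had themselves changed. Their 7 markers, osteoblast genes such as Bglap and Ifitm5, summed to 102328 and 119641 CPM in Control and to 36500 and 49952 CPM in Fracture, and the part of this shift in the fall of Col2a1 was not tested. Against chondrocyte-like cells, the fracture effect on Col2a1 was lower by 1.38 on the log2 scale in osteoblast-like cells (adjusted p = 1.15e-07), and that on Col11a1 by 0.73 (adjusted p = 0.000115). That on Col11a2 was not called (0.01, adjusted p = 0.946), and it stood at -0.11 without Control 1 and at 0.12 without Control 2. This term was called for 7 of 8 genes, against 27.9% of all genes. For Col11a1 it lay between -0.85 and -0.63 with 1 preparation left out.

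Higher values after fracture were also found in classes that are not known for these genes. All 8 were called as higher in endothelial-like (33.4% of all genes called) and smooth muscle-like cells (29.5%), and in the unnamed Kcnk2/Mmp9-led stromal cells (25%). Clustered without integration, no cluster of that kind was formed, and 57.0% of its Control cells and 81.3% of its Fracture cells fell among the osteoblast-like cells. In smooth muscle-like cells Col2a1 went from 923 and 741 CPM to 10127 and 5551 CPM. Without integration it went from 1228 and 673 CPM to 3374 and 2301 CPM, and Col9a1 from 139 and 75.3 CPM to 167 and 190 CPM. The 7 smooth muscle markers summed to 41451 and 37516 CPM in the smooth muscle-like cells of Control and to 19255 and 21852 CPM in those of Fracture, and mitochondrial genes gave a median of 6.95% and 5.39% and then 2.85% and 2.99% of their UMIs. Called doublets were 2.81% and 1.35% of the endothelial-like cells of Control and 6.02% and 5.52% of those of Fracture. The part of these shifts in the rises was not tested. In endothelial-like cells Col2a1 went from 1279 and 647 CPM to 9316 and 9700 CPM, and Col10a1 from 126 and 88.9 CPM to 2264 and 2332 CPM. Col2a1 there was 1.05 and 1.06 times the level that the collagen IX genes would give at the cartilage ratio in Fracture, and 1.07 and 1.10 times in Control. In erythroid-like cells Col2a1 was at 282 and 86.9 CPM in Control and at 3954 and 3124 CPM in Fracture. These cells had themselves changed, since their 8 markers summed to 13931 and 30911 CPM in Control and to 110884 and 138078 CPM in Fracture, and mitochondrial genes gave a median of 13.5% and 6.92% and then 1.82% and 1.86% of their UMIs. The 7 osteoblast markers summed in them to 1720 and 767 CPM in Control and to 3292 and 3128 CPM in Fracture. There none of the 8 was called by edgeR (0% of all genes, with 2376 at an unadjusted p under 0.05), while DESeq2 called 1059 genes, the 8 among them. The part of free RNA in these rises was not tested. In Control, Col27a1 stood at 75.1 and 84.0 CPM in Kcnk2/Mmp9-led cells and at 75.2 and 118 CPM in smooth muscle-like cells, against 8.59 and 3.07 CPM in erythroid-like cells. In the Kcnk2/Mmp9-led cells of Control it was 5.59 and 21.4 times, and Col11a1 5.51 and 17.8 times, the level that the collagen IX genes would give at the cartilage ratio. Over osteoblast-, BMSC-, fibroblast-, endothelial- and smooth muscle-like cells together 35 calls were made, and 8 in Kcnk2/Mmp9-led cells. Without Fracture 1, which leaves 1 Fracture preparation, calls fell over all genes tested in each of these classes.

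Results in BMSC-like cells (bone marrow mesenchymal stromal cells) and in fibroblast-like cells also hung on how the libraries were joined. All 8 genes were called as higher in the BMSC-like cells of Fracture (54.7% of all genes) and 5 of 8 in fibroblast-like cells (11.1%). Yet the 8 BMSC markers summed to 43892 and 38793 CPM in the Control cells of that class and to 2578 and 3399 CPM in the Fracture cells. The 8 fibroblast markers summed to 13226 and 18023 CPM in the fibroblast-like cells of Control and to 6352 and 6553 CPM in those of Fracture. Clustered without integration, 673 of the Fracture cells of the BMSC-like class, or 83.3%, fell among the fibroblast-like cells and 111 stayed. In that clustering 2 of 8 genes were called in BMSC-like cells, beside 319 of 12961 genes tested, with Col27a1 at -0.16. In fibroblast-like cells 0 of 8 were called, beside 2524 of 13253 genes tested. The label therefore does not hold for most of the Fracture cells called BMSC-like. In the BMSC-like cells of Control Col27a1 stood at 110 and 97.4 CPM, against 8.59 and 3.07 CPM in the erythroid-like cells of the same preparations, while Col2a1 was at 268 and 75.5 CPM, against 282 and 86.9 CPM.

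Detection in the same cell gave a view by cell, after each cell was thinned to 1000 UMIs. Col2a1 and Col10a1 were found together in 19.9% ± 0.957 of chondrocyte-like cells of Control and in 60.3% ± 0.585 of those of Fracture (SD, n = 2, exact permutation p = 0.333). The same share was 1.44% ± 1.72 and 21.3% ± 3.80 in erythroid-like cells, a difference of 19.9 percentage points beside the 40.4 of chondrocyte-like cells. Median depth before thinning was 12281 to 18015 UMIs per chondrocyte-like cell and 2996 to 8634 per erythroid-like cell. Without thinning the pair was found in 40.4% and 97.4% of chondrocyte-like cells and in 14.2% and 94.7% of erythroid-like cells, so detection at full depth did not set the classes apart in Fracture. In Aldh1a3/Loxl4-led cells the pair was in 90.3% ± 0.910 and 98.7% ± 0.269 of cells, and in Sgms2/H2-Ab1-led cells in 23.4% ± 0.218 and 58.1% ± 1.14.

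The 3 chains of collagen IX were found together in 73.6% ± 2.92 of chondrocyte-like cells of Control and in 79.7% ± 0.574 of Fracture, beside 0% and 1.76% in erythroid-like cells. Col11a1 and Col11a2 were found together in 82.8% ± 3.51 and 82.2% ± 0.397, a difference within the spread of the Control preparations. In Aldh1a3/Loxl4-led cells that share was 87.4% ± 2.18 in Control and 67.9% ± 0.155 in Fracture. Col2a1 and Col27a1 were together in 73.0% ± 2.97 and 66.7% ± 1.23. In osteoblast-like cells Col11a1 and Col11a2 shared 87.1% ± 1.34 of cells in Control and 85.5% ± 0.230 in Fracture, and Col2a1 and Col11a1 60.6% ± 5.20 and 59.2% ± 1.32. The 3 collagen IX chains were found together in 0% and 0.39% of osteoblast-like cells.

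**Figure D5:**
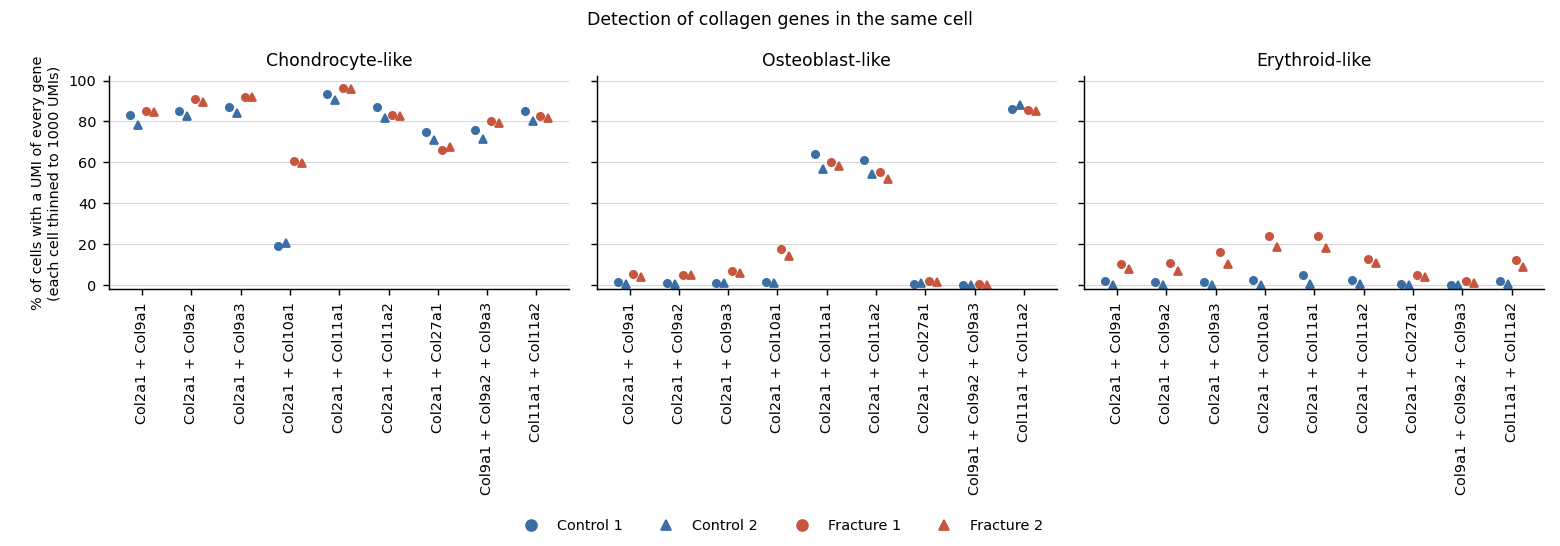
Share of cells with at least 1 UMI of every gene named, after thinning to 1000 UMIs per cell, in chondrocyte-like, osteoblast-like and erythroid-like cells; each point is 1 preparation. The pair of Col2a1 and Col10a1 is at a mean of 19.9% in Control and 60.3% in Fracture in chondrocyte-like cells, and is also higher in erythroid-like cells of Fracture, while Col11a1 with Col11a2 is as frequent in osteoblast-like as in chondrocyte-like cells.

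Summed over all cells of a preparation, 7 of 8 genes were higher in Fracture, against 28.5% of all genes called. Col10a1 rose by 3.12 (SE 0.30, adjusted p = 0.0112), from 1536 and 1053 CPM to 9446 and 9014 CPM. Col2a1 rose by 2.18 (SE 0.50, adjusted p = 0.0437) and the collagen IX genes by 1.84 to 2.07. Col11a2, at 1.08 (SE 0.26, adjusted p = 0.0511), was the one not called. Chondrocyte-like cells were 2153 of 12755 and 692 of 7921 cells kept in Control, and 6853 of 11867 and 7193 of 12785 in Fracture. The ratio of the plain CPM means of Fracture and Control was 3.73 for Col2a1 over all cells and 1.17 within chondrocyte-like cells. For the collagen IX genes it was 2.95 to 3.45 over all cells and 0.871 to 1.00 within chondrocyte-like cells. Median depth per chondrocyte-like cell was 14087 and 18015 UMIs in Control and 12281 and 13177 UMIs in Fracture. Without Fracture 1 or without Fracture 2 Col10a1 was at 3.10 and 3.15. With 1 Fracture preparation left, calls over all cells were lost for all genes tested, not for these 8 alone. With 1 Control preparation left, calls over all genes rose instead.

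Of 48 partners of these collagens, a list of regulators, modifying enzymes, receptors and matrix proteins, all were tested in chondrocyte-like cells, and 22 rose and 8 fell (62.5%, against 36.8% of all genes). The median log2 difference was 0.43 over the partners and -0.01 over all genes tested. The values are over the whole class, whose subcluster shares shifted with fracture, and the part of that shift in them was not tested. The list was chosen with earlier results of these data known, and the groups below were made after the values were seen. Of 13 enzymes and chaperones that modify or cross-link collagen 11 rose, among them Lox, the oxidase that starts cross-links, at 3.09 (SE 0.08, adjusted p = 0.000934). Of 7 genes for the cleavage of collagens and procollagens, the enhancer Pcolce included, 4 rose, among them Mmp13, the collagenase of hypertrophic cartilage, at 2.14 (adjusted p = 0.00139) and Adamts14, which trims procollagen, at 2.44 (adjusted p = 0.00159). Adamts14 was low, at 1.37 and 1.20 CPM in Control and at 6.38 and 6.37 CPM in Fracture. Of 9 transcription factors 5 fell and 1 rose. Sox9 fell by 0.47 (adjusted p = 0.0151) and Sox5 by 1.16 (adjusted p = 0.00175), both activators of Col2a1, while Runx2, which acts on Col10a1, was at 0.24 (adjusted p = 0.0574). Of 10 matrix partners 2 rose and 2 fell, and of the receptors with Ihh 4 rose and 1 fell.

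Over 32 sums (8 classes in 4 preparations), the genes whose log2 level went most closely with each of 4 members were found among 6769 genes. For Col10a1 they were Ihh and Matn3 (r = 0.96 each) and Lect1 (0.93), and for Col2a1 Car12 (0.93), Ihh (0.91) and Matn3 (0.90). For Col11a1 they were Pycr1 and Smpd3 (0.92 each) and Car12 (0.91), and for Col27a1 Prkg2 and F5 (0.92 each) and Chadl (0.91). Among the members themselves the collagen IX chains went closest, with r of 0.99 to 1.00, and Col11a1 with Col11a2 reached 0.97. Sums of a preparation share its libraries and its free RNA, and the values are descriptions. Among 28 sums of 7 subclusters Col10a1 was negatively related to the other 7 genes (r from -0.49 with Col27a1 to -0.13 with Col11a1).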

How the data were processed

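Single-cell RNA libraries (Chromium 3′) were made from bone stromal cells of femur depleted of blood cells. The deposited tables hold UMI counts per gene and cell, which the authors made, per the labels, with bcl2fastq 2.19.1.403, UMI-tools 1.0.0, STAR 2.7.3a and featureCounts 1.6.4 on mm10. The published methods name STARsolo, and a filter by EmptyDrops, in a section whose cell filters are those of the study's other datasets. For the fracture libraries they start from extracted matrices, and whether EmptyDrops was run on them is not given in the sources used here. The Control tables held barcodes of as few as 1 UMI, whereas the Fracture tables held none under 1929 UMIs.

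Barcodes were kept as cells where they held between 500 and 6000 genes and where 27 mitochondrial genes gave no more than 25% of the UMIs. Genes had to be found in at least 3 cells. Libraries were joined with Seurat 5.3.0 by canonical correlation and clustered (resolution 0.1 for classes, 0.2 for chondrocyte-like cells, 0.08 for stroma), with the 8 genes left out. Clusters were named from marker lists. Doublets called with scrublet in scanpy 1.11.5 (722 cells, 1.59%) were kept, and their removal was an alternative. UMIs were summed over the 2 libraries of a preparation. Sums with at least 20 cells in every preparation were tested with edgeR 4.0.16 (quasi-likelihood, TMM scaling, Benjamini-Hochberg adjustment over all genes tested), with the SE taken from the log2 difference and its F value. Ratios and shares of cells were compared by exact two-sided permutation tests, whose smallest p with 2 preparations a group is 0.333. For detection in the same cell, cells were thinned to 1000 UMIs each, without those that held fewer. Depth was 56543151 to 89126291 UMIs per library. The precision is limited by the 2 preparations a group and, in small sums, by few UMIs.

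Besides the 8 genes, the 3 genes most alike in log2(CPM + 1) to each of 4 members (mean of at least 20 CPM) and up to 6 of 48 listed partners were named. The members and lists were chosen with earlier results of these data known. R 4.3.3, DESeq2 1.42.0, Python 3.11.15, numpy 2.4.6, pandas 2.3.3, scipy 1.17.1 and matplotlib 3.10.9 were used, and the scripts were tested on simulated data. Alternatives were other size factors, DESeq2, no filter on low counts, a replicate block, each preparation left out, other clusterings and no integration. The planned test of hypertrophic-like cells could not be run at the main resolution, where no cluster had that name, and was run at resolution 0.1.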

Additional observations from a re-analysis of the deposited data

Results flagged for a closer look

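The effect of fracture differed across the 7 subclusters of chondrocyte-like cells for all 8 genes, by edgeR's quasi-likelihood test of the 6 subcluster by group terms. The adjusted p-values were 3.86e-10 for Col2a1, 1.57e-09 for Col11a2, 1.72e-09 for Col9a1, 4.16e-09 for Col9a3, 4.94e-08 for Col9a2, 1.9e-06 for Col10a1, 2.29e-06 for Col27a1 and 1.84e-05 for Col11a1.

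The effect also differed between osteoblast-like and chondrocyte-like cells for 7 of the 8 genes, against 27.9% of all genes tested. As log2 differences of osteoblast-like minus chondrocyte-like effects, it was -1.38 for Col2a1 and -0.73 for Col11a1. It was 2.89 for Col10a1, 2.75 for Col9a3, 2.67 for Col9a2, 2.32 for Col9a1 and 1.57 for Col27a1, genes that stood at 24.7 CPM or less in osteoblast-like cells of Control. In Fracture these genes lay below the erythroid-like cells of the same preparations. Without integration Col27a1 lay above those cells in both Fracture preparations, and Col9a2 in Fracture 1. The part of free RNA in these terms was not tested. When 1 preparation was left out, the terms ranged from 2.16 to 3.85 for Col10a1, from 2.22 to 3.46 for Col9a3, from 2.22 to 3.31 for Col9a2 and from 1.80 to 3.02 for Col9a1. The term of Col11a1 was between -0.85 and -0.63 when 1 preparation was left out. Too few sums remain in such fits for their calls to be read. Groups of 2 preparations were too small for a check of single outlying samples.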

How the results depend on the processing

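In chondrocyte-like cells 2 of the 8 genes were called, against 4 with DESeq2 (Col2a1 and Col11a1 added), 5 without a filter on low counts and 0 to 4 with 1 preparation left out. Replicate numbers did not pair the preparations (correlation of deviations 0.01 in chondrocyte-like and 0.03 in all cells). With the replicate block 1 gene was called there, Col10a1, while Col27a1 had an adjusted p of 0.0531. Over osteoblast-, BMSC-, fibroblast-, endothelial- and smooth muscle-like cells 35 calls became 20 without integration and 12 to 39 with 1 preparation left out. Over subclusters 20 calls became 37 without the filter and 0 to 33 with 1 preparation left out, and over all cells 7 became 0 to 8. The hypertrophic-like term, with 0 calls, had 2 with the size factors of DESeq2 and 0 to 7 with 1 preparation left out. Over all genes the calls in chondrocyte-like cells fell from 6377 to 4171 with the block, to 579 without Fracture 1 and to 612 without Fracture 2. Directions turned for Col9a1 in chondrocyte-like cells without Control 1 (-0.10 to 0.0090 with either Control preparation left out), for Col27a1 in BMSC-like cells without integration (-0.16), and in fibroblast-like cells without integration for Col9a1 (-0.89), Col9a2 (-0.68), Col9a3 (-0.79), Col10a1 (-0.72) and Col27a1 (-0.63). Shares of cells turned without thinning for Col2a1 with Col11a2 (2.27 percentage points), Col2a1 with Col27a1 (0.0891) and Col11a1 with Col11a2 (2.13), and without Control 1 for Col2a1 with Col11a2 (0.966, against -4.05 without Control 2) and Col11a1 with Col11a2 (1.88, against -3.09). The causes were not tested. Of 49 values not called in the other classes and the subclusters, 19 turned under at least 1 alternative (44 of 611 alternative values). Of the alternative values of the called genes, and of all 8 genes in chondrocyte-like cells and over all cells, 737 kept direction and call, 153 lost the call and 12 gained it. The number of preparations, 2 a group, limits these tests.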
